A study of Mus musculus with 8 samples.

Results

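Integrins hold a cell to its matrix, and a small set of cytoplasmic proteins ties them to the actin cytoskeleton. The genes followed here encode 10 of those linkers: the talins Tln1 and Tln2, vinculin (Vcl), zyxin (Zyx), Vasp, the alpha-actinins Actn1 and Actn4, integrin-linked kinase (Ilk), alpha-parvin (Parva) and a kindlin (Fermt2). They were named as a list, and every probe set annotated to exactly 1 of them was taken, which gave 21 probe sets out of 45101 on the array and 10 genes out of 18193 named ones. All 10 genes passed the filter on low values through their brightest probe set.

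The arrays hold RNA from E11.5 mouse embryos, labelled as FAK mutants or as controls. The FAK protein, or focal adhesion kinase, phosphorylates tyrosines at the same adhesion sites where these linkers sit. There was 1 control and 1 mutant array for each of 4 origins. Cranial neural crest cells sorted for p75 came from dissected head and thorax, with 3 embryos pooled per array. The remaining 6 arrays carry the origin names LM, OFT and UM, which the labels do not spell out. The mutant allele, its effect on FAK function, the genotype of the controls, and the number of embryos behind the LM, OFT and UM arrays are not given in the sources used here. The targeted gene was not analysed here, so its level does not check the labels. With 1 array per origin and genotype, each origin was represented by its control plus its mutant array, p-values for genotype rest on how the difference varied between origins, and nothing says that any arrays are repeats of 1 tissue sample.

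Talin is the first link of the chain: it binds the tail of the integrin beta subunit, switches the integrin on and binds actin, and the kindlin joins it on the same tail. Stretched talin exposes sites for vinculin, which adds further bonds to actin. Integrin-linked kinase forms a complex with a PINCH protein and parvin, alpha-actinin crosslinks filaments, and zyxin with Vasp gathers where tension is high and promotes actin growth. Neural crest cells migrate over integrin ligands, and muscle cells of heart and vessel wall carry force through the same links.

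The sort label held against Ngfr and Sox10. Ngfr, which encodes p75, had an intensity of 1043 and 1422 on the p75-sorted control and mutant arrays and 47.0 to 149 on the other 6. Sox10, a neural crest transcription factor, had 1512 and 1620.4 against 25.3 to 57.5. Not every neural crest marker was higher. Of 9 tested, 6 were called higher than in LM and UM and 2 lower, in the comparison given below. Twist1 had 787 and 772 in p75-sorted cells against 1038 to 1213 in LM and UM. The p75-sorted arrays stood apart in technical controls too. For Gapdh, the 3′ control probe set divided by the 5′ one gave 2.82 and 4.91, against 0.700 to 0.986 elsewhere, while for Actb the ratio was 1.57 and 1.65, within the 1.42 to 1.94 of the others. The 5′ control probe set of 18S RNA gave 6083 and 8542 against 314 to 1228. No other pair carries a label of sorting and pooling, so origin and preparation cannot be told apart for it. Intensities were used as deposited, on a scale where each array has a trimmed mean of 150.001. They were tested as log2(intensity + 32), on which an intensity of 0 is 5 and the differences of dim probe sets are understated.

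Vcl and Fermt2 are shown first by sequence, because theirs were the promoter windows that held a CArG box, the binding sequence of serum response factor, a regulator of actin cytoskeleton genes. RefSeq promoter windows on GRCm38.p6, 250 bases before to 50 after a start, were found for 8 of the 10 genes, in 9 windows since Ilk has 2. In the sequences here the capitals mark the CArG box. The Vcl stretch is chr14:20929148-20929382 on the plus strand, with the box beginning 227 bases before the start. The Fermt2 stretch is chr14:45530250-45530279 on the minus strand, with the box beginning 204 bases before the start.
Vcl: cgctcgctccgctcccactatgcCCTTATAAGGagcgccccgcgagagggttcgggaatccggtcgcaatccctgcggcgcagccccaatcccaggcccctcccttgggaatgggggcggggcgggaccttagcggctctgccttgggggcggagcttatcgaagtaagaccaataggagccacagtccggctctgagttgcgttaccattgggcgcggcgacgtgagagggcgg
Fermt2: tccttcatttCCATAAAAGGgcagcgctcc

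A CArG box was present in 2 of the 9 windows and in 1.63% of all 32851 windows of the same length, both strands read. The letters CATTCC, the core of a TEAD site, were present in 2, those of Vcl and Actn4, against 14.7% of all windows. GGGCGG, the core of an SP site, was present in 6, against 35.7%. No match to 1 motif overlapped a match to another in these windows, and a match is a description of the window only. The windows of Zyx, Tln1, Ilk, Actn1, Actn4 and Vasp held no CArG box within these 300 bases.

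Across origins, 8 of the 10 genes differed in level by limma's moderated F test, at adjusted p from 3.5e-05 for Zyx to 0.030 for Parva, where 46.3% of all 13543 genes tested were called. Tln2 had an adjusted p of 0.058 and Vasp of 0.12. By the brightest probe set of each of the 10 genes, both LM and UM lay below both OFT and the p75-sorted cells, as means over 2 arrays. On the same probe sets the p75-sorted cells were highest for 7 genes and OFT for Vasp, Actn1 and Parva. The order does not hold for every probe set. Among the others, 5 were called lower in p75-sorted cells than in LM and UM, from Vcl, Actn1, Fermt2 and Parva, as given below. The plot of levels by array and the values given next are those of the brightest probe sets.

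**Figure D1:**
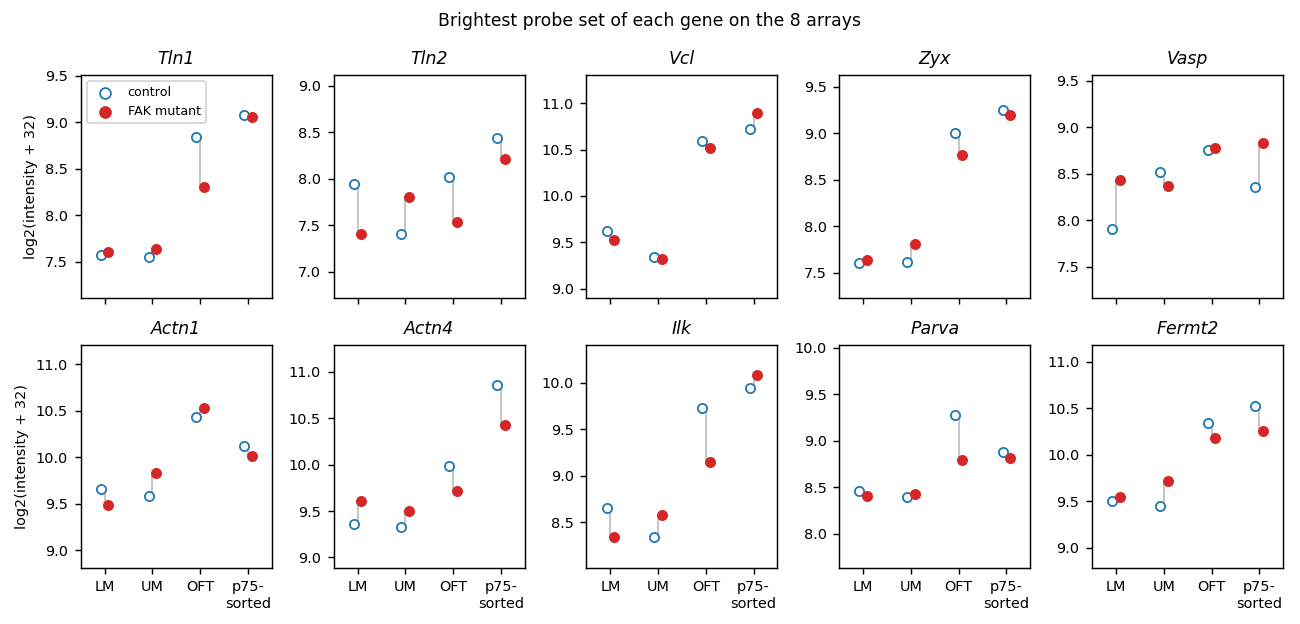
Level of each linker gene, read from its brightest probe set, on the 8 arrays. The y axis is log2(intensity + 32) and spans the same width in every panel, the x axis gives the origin, open circles are controls, filled circles are FAK mutants and grey lines join a pair. For every gene but Tln2 and Vasp the OFT and p75-sorted arrays lie above all LM and UM arrays.

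The talins come first, as the link to the integrin tail. The brightest Tln1 probe set had an intensity of 158 and 163 on the LM control and mutant arrays, 156 and 167 in UM, 425 and 283 in OFT, and 507 and 499.8 in p75-sorted cells. LM and UM overlapped, OFT lay above both, and the p75-sorted arrays lay above OFT. Tln2, the other talin, had 213 and 137 in LM, 138 and 190.4 in UM, 227 and 154 in OFT, and 314 and 265 in p75-sorted cells. Its OFT arrays overlapped those of LM, and only the p75-sorted arrays lay outside the rest.

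Vcl had an intensity of 757 and 705 in LM, 618 and 609 in UM, 1516 and 1435 in OFT, and 1650.4 and 1867 in p75-sorted cells, control first. No neighbouring origins overlapped for this probe set. Fermt2, the kindlin gene, had 692 and 713 in LM, 665 and 809 in UM, 1266 and 1132 in OFT, and 1443 and 1189 in p75-sorted cells. Its arrays fell into a lower group of LM and UM and an upper group of OFT and p75-sorted cells, with overlap inside each group.

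In the complex of integrin-linked kinase, Ilk had 371 and 291 in LM, 293 and 349.8 in UM, 813 and 534 in OFT, and 949 and 1053 in p75-sorted cells. Only LM and UM overlapped. Parva had 319.5 and 306 in LM, 303 and 312 in UM, 589 and 413 in OFT, and 439 and 419.8 in p75-sorted cells. The lower OFT array, the mutant, lay below both p75-sorted arrays, so these origins overlapped, as did LM and UM.

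Of the filament crosslinkers, Actn1 had 779 and 687 in LM, 738 and 879 in UM, 1352 and 1452 in OFT, and 1087 and 1006 in p75-sorted cells. Actn4 had 626 and 746 in LM, 609 and 694 in UM, 979 and 810.2 in OFT, and 1822 and 1343 in p75-sorted cells. By these brightest probe sets both alpha-actinin genes were lowest in LM and UM, but Actn1 was highest in OFT and Actn4 in the p75-sorted cells. For each of these probe sets only LM and UM overlapped. The other Actn1 probe sets, 1427385_s_at and 1452415_at, were lowest in the p75-sorted cells, as given below.

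At the actin growth end, Zyx had 163 and 168 in LM, 164 and 193 in UM, 483 and 404 in OFT, and 579.8 and 556 in p75-sorted cells. LM and UM overlapped and the other origins did not. Vasp had 208 and 313 in LM, 335 and 298 in UM, 399 and 407 in OFT, and 296 and 424 in p75-sorted cells. Every neighbouring pair of origins overlapped for Vasp.

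OFT was compared with the mean of LM and UM. Of the 10 genes 7 rose in OFT and 0 fell by limma, where 11.3% of all genes tested were called higher and 3.89% lower. The rise of Zyx was 1.22 ± 0.16 in log2 units (error as moderated SE, with 2 arrays for each origin), 2.33-fold, with an adjusted p of 0.00018. Vcl rose by 1.10 ± 0.15, with 0.00031, and Tln1 by 0.98 ± 0.17, with 0.0019. Ilk rose by 0.96 ± 0.19, Actn1 by 0.84 ± 0.16, Fermt2 by 0.71 ± 0.16 and Parva by 0.62 ± 0.16, with adjusted p from 0.0031 to 0.023. The remaining genes did not pass: Vasp differed by 0.46 ± 0.18, Actn4 by 0.40 ± 0.18 and Tln2 by 0.14 ± 0.19, and the 95% interval of Tln2 ran from -0.28 to 0.56. The median over the 10 genes was 0.78, against 0.01 over all genes tested.

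The count depended on both OFT arrays, the pseudocount and the choice of probe set. Leaving out either OFT array leaves that origin with 1 array. Among single arrays left out, the count was lowest without the OFT control array. Without it 2 of the 10 genes were called, Vcl and Zyx, and the share of all genes called went from 15.2% to 4.66%. Tln1 was then at 0.69, Ilk at 0.66 and Parva at 0.39, with adjusted p from 0.13 to 0.49. Actn1, at 0.90 with 0.054, and Fermt2, at 0.63 with 0.22, did not pass either. All 7 calls were also made on the LM, OFT and UM arrays alone. Muscle markers moved with this comparison: the summed intensity of 10 cardiac muscle markers was 20331 to 23094 in OFT, 698 to 1012 in LM and 103 to 171 in UM, and that of 10 smooth muscle markers 6841 to 7178, 1018 to 1281 and 351 to 446. The sum of 8 neuronal markers was 3322 to 5055 in OFT and 602 to 1865 in LM and UM, with 5 of 8 called higher, and that of 8 endothelial markers 1627 to 1932 and 992 to 1125, also with 5 of 8. Of the 10 cardiac markers 8 lay under the filter intensity of 19.4 on both UM arrays, 4 on both LM arrays and 0 in OFT. Of the 10 smooth muscle markers 3 did in UM, 4 in LM and 0 in OFT. Most of the LM sums came from Actc1, with 552 and 875, and from Acta2, with 742 and 901. The part of these marker lists in the result was not tested, and in such tissue RNA fewer cells of a type and less RNA per cell cannot be told apart.

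**Figure D2:**
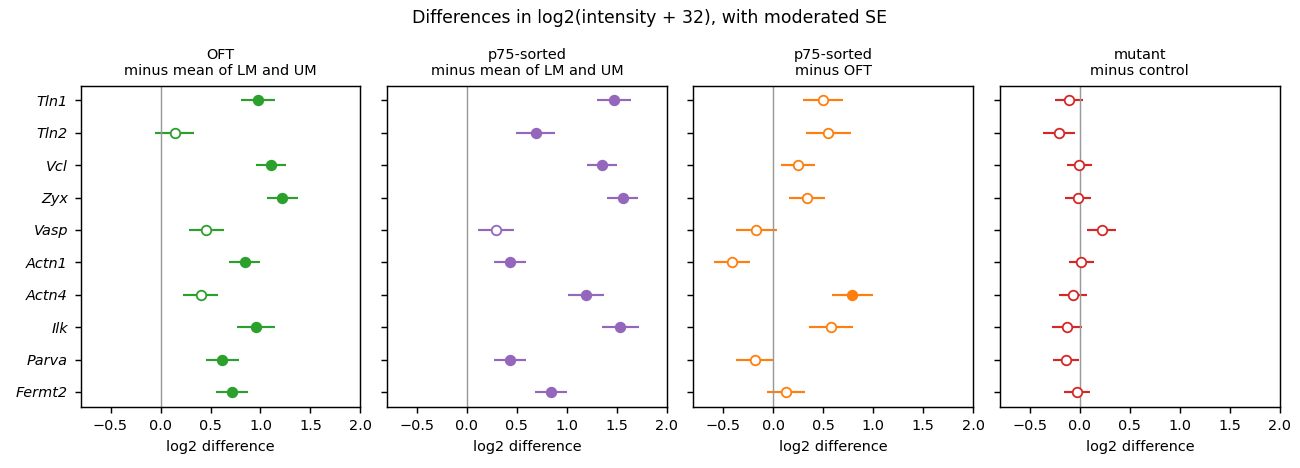
Differences of the 10 linker genes in 4 comparisons, in log2 units on the x axis, from limma on log2(intensity + 32). Points are estimates, bars are the moderated SE, filled points passed an adjusted p of 0.05 and open points did not. Against the mean of LM and UM, OFT and p75-sorted cells lie to the right of 0 for all genes. For p75-sorted cells minus OFT, Vasp, Actn1 and Parva lie to the left. The mutant and control comparison has only open points.

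LM and UM were not told apart by limma for these genes, though the Vcl arrays of LM lay above those of UM. None of the 10 passed by limma, and 0 had an unadjusted p under 0.05, where 1.55% of all genes were called and 8.51% had an unadjusted p under 0.05. The difference furthest from 0 was that of Vasp, -0.28 ± 0.21, with a 95% interval from -0.72 to 0.17, followed by Vcl at 0.24 ± 0.17. The narrowest interval was also that of Vcl, from -0.14 to 0.62.

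With p75-sorted cells set against LM and UM averaged, 9 of the 10 genes rose by their brightest probe set and 0 fell, where 29.3% of all genes tested were called higher and 18.6% lower. Zyx rose by 1.56 ± 0.16 with an adjusted p of 1.2e-05 by limma, Ilk by 1.53 ± 0.19 with 4.8e-05 and Tln1 by 1.47 ± 0.17 with 3.2e-05. Vcl rose by 1.35 ± 0.15, Actn4 by 1.19 ± 0.18, Fermt2 by 0.84 ± 0.16 and Tln2 by 0.69 ± 0.19. Actn1 and Parva rose by 0.43 ± 0.16 each, near the threshold with adjusted p of 0.039 and 0.045, and Vasp differed by 0.29 ± 0.18 with 0.20. The median over the 10 genes was 1.02, against 0.09 over all genes.

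The other probe sets of the same genes did not follow the brightest ones here. Of 10 further probe sets that passed the filter, 1 was called higher and 5 lower in p75-sorted cells when each probe set was its own feature in limma, where 21.8% of all probe sets were called higher and 23.6% lower. The second Vcl probe set, 1416157_at, which the annotation ties to the same transcript record as the brightest one, had 12.2 and 8.89 in p75-sorted cells, 77.5 and 112 in LM, 105 and 124 in UM, and 103 and 199.8 in OFT. Its p75-sorted values lay under the filter intensity of 19.4, and it fell by 1.67 ± 0.19 with an adjusted p of 2.1e-05 by limma, while the brightest Vcl probe set rose.

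Actn1 showed the same split. Its probe set 1427385_s_at had 12.5 and 9.14 in p75-sorted cells and 91.0 to 172 on the other 6 arrays, a fall by 1.66 ± 0.16 on the log2 scale, and 1452415_at had 27.1 and 37.2 against 97.7 to 117, a fall by 1.13 ± 0.16. Fermt2 probe set 1434181_at, from the same expressed sequence as the brightest one, had 271 and 213 against 392 to 572 and fell by 0.70 ± 0.16. Parva probe set 1416818_at had 152 and 86.2 against 162 to 191 and fell by 0.51 ± 0.19, with an adjusted p of 0.040 by limma. The brightest Parva probe set had an adjusted p of 0.053 when each probe set was its own feature, so Parva was called lower by 1 probe set and not called by the other.

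Tln1 was the 1 gene of the list whose second probe set, 1436042_at, moved the same way, with 154 and 129 in p75-sorted cells against 60.2 to 131 elsewhere, a rise by 0.62 ± 0.20 with an adjusted p of 0.022 by limma. The dimmest Tln1 probe set, 1457782_at, ranged from 12.8 to 51.5 and did not pass. Nor did Tln2 probe set 1435700_at, Zyx probe set 1438552_x_at and Fermt2 probe set 1459324_at. Tln2 probe set 1429112_at stayed out of the fit, with 1.34 and 1.44 in p75-sorted cells and 6.85 to 36.4 elsewhere. Ilk, Actn4 and Vasp have 1 probe set each, so no second reading exists here for them.

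In probe set terms, 3 of the 7 linker genes with several tested probe sets were called in both directions, namely Vcl, Actn1 and Fermt2, against 12.7% of all 6733 such genes. In OFT against LM and UM the figures were 0 of 7 and 0.104%. There 9 of the 10 further probe sets lay above 0, with a median of 0.35 against 0.78 for the brightest, and 0 passed, where 7.36% of all probe sets were called higher and 4.72% lower. With probe sets averaged per gene, 4 linker genes were higher in p75-sorted cells and 1, Actn1, was lower, and with the second brightest probe set 3 were higher and 4 lower. Of all genes tested, 46.8% were called in either direction with averaging and 42.3% with the second brightest, against 47.9% with the brightest. The Gapdh control ratio moved with these arrays, as given above, and the Actb ratio did not, and the part of RNA quality in the split was not tested.

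**Figure D3:**
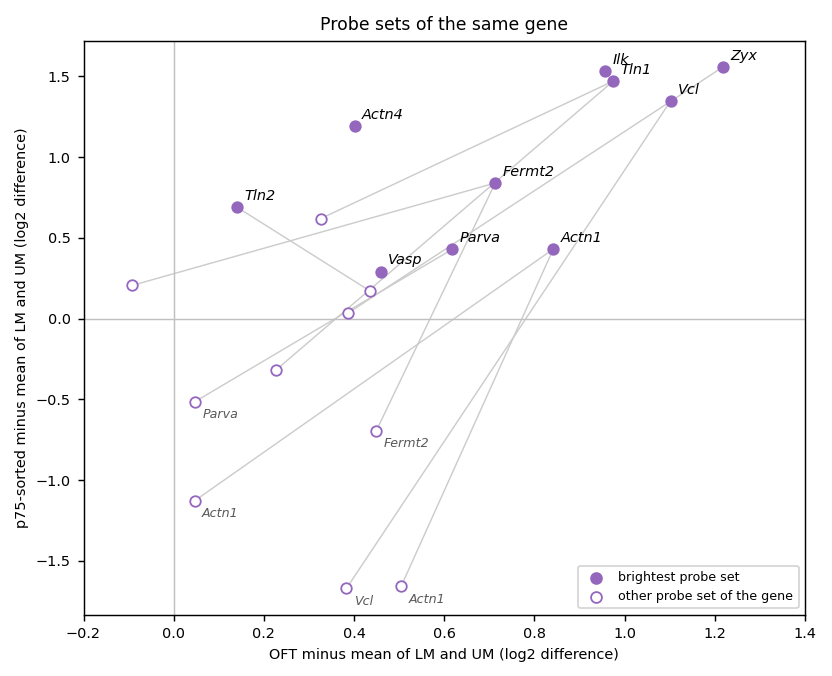
The 20 tested probe sets of the linker genes, by their log2 difference in OFT (x axis) and in p75-sorted cells (y axis), each against the mean of LM and UM. Filled points are the brightest probe set of a gene, open points its other probe sets, and grey lines join probe sets of 1 gene. All filled points lie above 0 on both axes, while 6 of the open points, from Vcl, Actn1, Fermt2, Parva and Tln1, lie below 0 on the y axis.

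Marker lists moved with this comparison as well. The sum of 9 neural crest markers was 8909 to 10673 in p75-sorted cells and 1925 to 3486 in LM and UM, with 6 of 9 called higher and 2 lower. That of 8 neuronal markers was 3384 to 5868 against 602 to 1865 (8 of 8 called higher). That of 8 epithelial markers was 472 to 576 against 1451 to 2718 (8 of 8 called lower). The muscle lists were higher too, with sums of 2240.2 to 3097 against 351 to 1281 for smooth muscle (6 of 9 tested markers called higher), 1971 to 2715 against 103 to 1012 for cardiac muscle (7 of 10) and 1076 to 2158 against 271 to 987 for 8 skeletal muscle markers (5 of 8). Most of the cardiac sum in p75-sorted cells was Actc1, with 1541 and 2325, and most of the smooth muscle sum was Acta2, with 1468 and 2331. The cardiac marker Myl7 had 24.8 and 17.6 there. The endothelial sum was lower, 347 to 348 against 992 to 1125 (6 of 8 called lower), as were the erythroid sum, 14999 to 17906 against 27323 to 45333 (4 of 6), and that of macrophage and platelet markers, 252 to 375 against 736 to 805 (5 of 6). On both p75-sorted arrays 3 of the 10 smooth muscle markers, Myh11, Cnn1 and Lmod1, lay under 19.4. So did 1 of the 10 cardiac markers, Tnni3, 3 of 8 macrophage and platelet markers, 1 of 8 endothelial and 1 of 7 erythroid ones. None of the skeletal muscle, neural crest, epithelial or neuronal markers did. The part of these marker lists in the result was not tested.

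Set against OFT, the p75-sorted cells had 1 linker gene higher by its brightest probe set, Actn4, at 0.79 ± 0.20 with an adjusted p of 0.011 by limma, and 0 lower, where 19.2% of all genes tested were called higher and 15.3% lower. Ilk differed by 0.58 ± 0.22, Tln2 by 0.55 ± 0.22 and Tln1 by 0.50 ± 0.20, with adjusted p of 0.057, 0.078 and 0.070, and Actn1 by -0.41 ± 0.18, with 0.098. The Actn4 call did not hold without the p75-sorted control array, at 0.55, or without the OFT mutant array, at 0.66, and its adjusted p ranged from 0.0049 to 0.14 over the alternatives. By their other probe sets, Vcl fell by 2.05 ± 0.22, Actn1 by 2.16 ± 0.19 and by 1.18 ± 0.18, and Fermt2 by 1.15 ± 0.19, which made 4 of 10 lower and 0 higher, where 14.8% of all probe sets were called higher and 16.6% lower.

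Mutant against control asks whether the arrays labelled as FAK mutants differ in the transcripts of its neighbours at the adhesion site. No linker gene passed by limma, and 0 had an unadjusted p under 0.05, where 0% of all genes were called and 3.04% had an unadjusted p under 0.05. Vasp differed most, by 0.22 ± 0.15 (moderated SE, n = 4 pairs), with a 95% interval from -0.10 to 0.53, and Tln2 by -0.21 ± 0.16, from -0.56 to 0.14. The interval for Vcl ran from -0.27 to 0.26 and that for Zyx from -0.29 to 0.26, on the log2 scale. The median over the 10 genes was -0.05, against -0.01 over all genes tested.

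Within pairs the signs were mixed. In OFT 8 of the 10 genes were lower in the mutant, with a median difference of -0.25, where 57.2% of all genes were lower and the median was -0.05. Ilk differed by -0.58 there, Tln1 by -0.54, Parva by -0.48 and Tln2 by -0.48. In UM 8 of 10 were higher, with a median of 0.19 against 0.04 over all genes, led by Tln2 at 0.39 and Fermt2 at 0.27. In LM 5 were higher and 5 lower, and in p75-sorted cells 3 were higher and 7 lower. The largest differences there were those of Vasp, 0.52 in LM and 0.48 in p75-sorted cells, and of Tln2 in LM, -0.53. No gene went the same way in all 4 pairs. Each of these values sets 1 array against 1 other and has no replicate behind it.

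**Figure D4:**
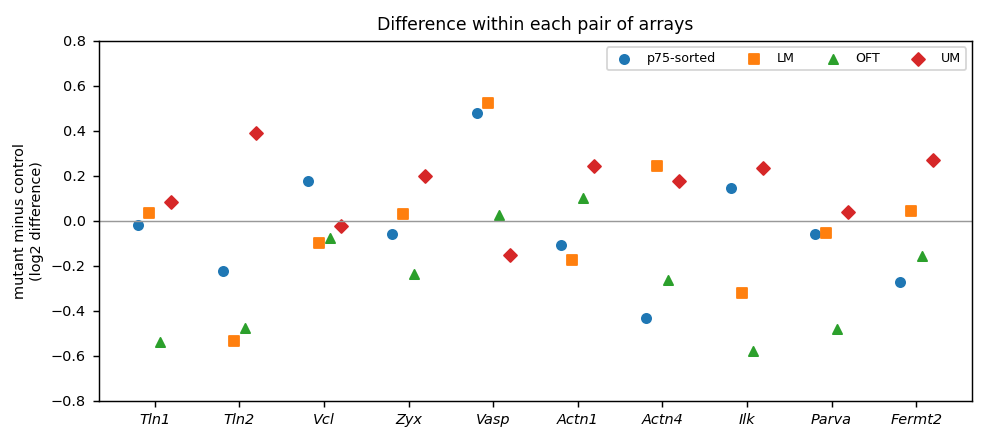
Mutant minus control difference of each linker gene within each pair of arrays, in log2 units on the y axis, with 1 marker per origin. The OFT markers lie below 0 for 8 of the 10 genes and the UM markers above 0 for 8, and no gene has all 4 markers on the same side.

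Whether the difference of 1 pair departed from that of the other 3 was tested in 4 fits, 1 per origin. None of the 10 genes passed in any of them by limma, where 0.00738% of all genes passed for p75-sorted cells and for OFT, and 0% for LM and UM. At an unadjusted p under 0.05 there was 1 linker gene, Tln2 in the UM pair, whose difference lay 0.80 above the mean of the other pairs, with an adjusted p of 0.80. In the OFT pair the sum of the neuronal markers was 5055 in the control and 3322 in the mutant, and that of the neural crest markers 2215 and 1528. The endothelial sum was 1932 and 1627 and the cardiac sum 20331 and 23094, and their part in these differences was not tested.

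Relatives of these genes and further adhesion genes also differed between origins, and their counts stand beside the share of all genes called, 11.3% higher and 3.89% lower in OFT, and 29.3% higher and 18.6% lower in p75-sorted cells, both against LM and UM. Genes of these lists, including the adhesion, integrin and serum response factor lists below, were read from their brightest probe set only. Their other probe sets were not compared. In p75-sorted cells against LM and UM, 12.7% of all genes with several tested probe sets were called in both directions. Of 15 tested family relatives 3 rose in OFT and 0 fell. They were Actn2, the alpha-actinin of striated muscle, at 3.01 ± 0.16, Lpp, of the zyxin family, at 1.02 ± 0.19, and the parvin gene Parvb at 0.85 ± 0.20. In p75-sorted cells 7 of the 15 rose and 1 fell, with Trip6, of the zyxin family, at 1.69 ± 0.15, Lims2, a PINCH gene, at 1.35 ± 0.22, Ajuba at 0.97 ± 0.18, and Fermt3, the kindlin of blood cells, at -0.98 ± 0.18. Actn2 had an intensity of 429.9 and 419.9 in OFT and 13.1 to 39.9 on the other 6 arrays.

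Of 31 other integrin adhesion and actin linker genes tested, 15 rose in OFT and 0 fell, where 11.3% and 3.89% of all genes did, and 16 rose and 4 fell in p75-sorted cells, where 29.3% and 18.6% did. In OFT the largest were Nexn, an actin-binding gene of heart muscle, at 2.56 ± 0.15, Kank1, which encodes a talin-binding protein, at 2.13 ± 0.15, Synpo2 at 2.01 ± 0.18 and Tgfb1i1, a paxillin relative, at 1.85 ± 0.17. In p75-sorted cells Pxn, the paxillin gene, rose by 1.71 ± 0.15, Tgfb1i1 by 1.71 ± 0.17 and Pdlim1 by 1.47 ± 0.15, and the actin monomer binder Pfn1 fell by 1.65 ± 0.19. Nexn and Synpo2 were also higher in LM than in UM, by 1.01 ± 0.18 and 0.95 ± 0.21.

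The integrin subunits had 3 of 13 tested genes higher in OFT and 0 lower, where 11.3% of all genes were higher. Itga1 rose by 1.59 ± 0.15, Itga4 by 1.55 ± 0.16 and Itgb1, the beta subunit that most adhesion sites share, by 0.68 ± 0.16. In p75-sorted cells 7 rose and 2 fell, where 29.3% and 18.6% of all genes did, with Itga4 at 2.30 ± 0.16, Itgb5 at 1.41 ± 0.19 and Itga6 at 1.31 ± 0.15, while Itgb1 lay at -0.96 ± 0.16. Itga4 had 143 and 118 in LM, 121 and 142 in UM, 474 and 414 in OFT, and 809 and 734 in p75-sorted cells, so LM and UM overlapped and the other origins did not. Of 18 genes of the serum response factor axis 13 rose in OFT and 0 fell, against the same 11.3% of all genes higher, led by Acta2 at 3.67 ± 0.16 and Myl9 at 2.63 ± 0.19, which encode smooth muscle actin and a myosin light chain. Acta2 and Myocd of this list are also among the smooth muscle markers, whose sums were higher in OFT as given above. The part of muscle content in this count was not tested. In p75-sorted cells 9 of the 18 rose and 1 fell, against 29.3% and 18.6% of all genes, with Ccn1, a matrix-associated signalling gene, at 3.75 ± 0.18. In the genotype comparison 0 genes of these 4 lists passed by limma.

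By correlation of log2 values over the 8 arrays, the brightest probe sets of the linker genes had a Pearson r above 0 for 44 of their 45 pairs. The median was 0.83. No such value over all gene pairs is given here, and 46.3% of all genes tested differed among the origins. The likeness is therefore not shown to be particular to the list, and other probe sets of these genes were not used for it. Tln1 and Ilk were closest at 0.987, followed by Tln1 and Zyx at 0.985, and Tln2 and Vasp furthest apart at -0.04. Outside the list, Tln1 was most like Mxra7, St8sia2 and Akt1, at 0.995 to 0.996, and Vcl most like Slc7a1, Kcnh2 and Adcy6, at 0.994 to 0.995. Zyx was most like Zmiz1, Hoxb5 and Itga4, at 0.991 to 0.994, and Ilk most like Fmod, Hsd3b7 and Nkx6-1, at 0.993 to 0.994. Actn4 was most like Strn4, Ptprn2 and Sec22b, at 0.988 to 0.995, Tln2 most like Ehd1, Srr and Acvr1b, at 0.990 to 0.992, Fermt2 most like Eif4g3, B3gnt9 and Cdc42bpb, at 0.977 to 0.989, and Parva most like Fgd1, Plxnd1 and Xylt2, at 0.971 to 0.976. Values for Actn1 lay at 0.986 to 0.989 for Hcfc1r1, Fxyd1 and Mitf, and were lowest for Vasp, at 0.946 to 0.950 for A930004D18Rik, Ccm2l and Ppp2r5a. The 8 points share origins and array scaling, with 2 arrays at each origin, so they are a description and not independent samples.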

How the data were processed

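RNA was measured on 8 Affymetrix arrays. The authors deposited a linear intensity for each probe set, and the software behind it is not stated here. With the lowest and highest 2% of values trimmed, each array averaged 150.001, so no scaling was added. Probe sets were named through the supplied platform annotation: 34945 had 1 gene, 932 had several and were left out, and 9160 were unnamed. Symbols were checked against GRCm38.p6 through Entrez identifiers, with 0 changes. A gene was represented by its brightest probe set by mean log2 value. It was tested if at least 2 arrays exceeded 19.4, the 40th percentile of all values.

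Limma 3.58.1 in R 4.3.3 was fitted to log2(intensity + 32), with origin and genotype as terms. This left 3 residual degrees of freedom, to which the prior added 9.18. Control and mutant arrays were paired by the origin label. P-values were adjusted by Benjamini-Hochberg over all 13543 genes, or over all 31057 probe sets, at 0.05. The genotype dependence on origin was fitted with 2 residual degrees of freedom. The number of arrays limits the precision. The code was tested on simulated data.

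All linker genes were named. From the other lists up to 4 called genes with the largest difference per comparison were named, and 3 genes of highest correlation per member. The members and lists were chosen with earlier results of these data known. Alternatives were the pseudocount, quantile normalization, the filter, the choice of probe set, an intensity trend, and leaving out arrays or pairs; the second brightest probe set was added after seeing the data.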

Additional observations from a re-analysis of the deposited data

How the results depend on the processing

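The absence of a call for mutant against control (13 alternatives), LM against UM (17) and the genotype difference of 1 origin against the rest (2) held in each alternative run. Of 10 linker genes, 7 were higher in OFT than in LM and UM; 4 were with a pseudocount of 1, 1 with the second brightest probe set, and 2 to 7 with single arrays left out. The 9 calls in p75-sorted cells against LM and UM became 5 in either direction with probe sets averaged, and 5 to 9 over all alternatives. Of all genes, 47.9% were called as reported and 46.8% with averaging. For p75-sorted cells against OFT the 1 call became 0 with a pseudocount of 1, 3 with 64 and 2 with an intensity trend. It became 4 with averaged probe sets and 4 with the second brightest one, all counted in either direction. The shares of all genes called were 34.4% as reported, then 20.6%, 35.5%, 35.1%, 33.6% and 29.4%. With the second brightest probe set Vcl was at -2.05 and Fermt2 at -1.15, while the 1 reported call, Actn4, was a rise. How the Actn4 call depended on single arrays is given above. The 8 genes differing among origins became 5 with the second brightest probe set, where the share of all genes went from 46.3% to 39.7%. The cause of these changes was not tested.

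A direction turned in 26 cases with the choice of probe set, in 28 with an array or pair left out and in 1 with quantile normalization. Averaged per gene, p75-sorted cells against LM and UM gave -0.79 for Actn1, -0.042 for Parva and -0.16 for Vcl, and against OFT -0.24 for Fermt2, -0.904 for Vcl and -0.00638 for Zyx. LM against UM gave 0.046 for Actn1 and -0.049 for Parva, and mutant against control 0.15 for Vcl and 0.12 for Zyx. With the second brightest probe set, p75-sorted cells against LM and UM gave -1.13 for Actn1, -0.70 for Fermt2, -0.51 for Parva and -1.67 for Vcl, and against OFT -1.15 for Fermt2, -0.26 for Tln2, -2.05 for Vcl and -0.35 for Zyx. LM against UM gave 0.030 for Actn1, 0.027 for Fermt2, -0.12 for Parva and -0.22 for Vcl, and mutant against control 0.025 for Tln1, 0.13 for Tln2, 0.31 for Vcl and 0.26 for Zyx. Quantile normalization gave 0.027 for Tln1 in LM against UM.

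With single arrays or pairs left out, differences between LM and UM ran from -0.28 to 0.019 for Actn1, -0.14 to 0.28 for Actn4, -0.26 to 0.14 for Fermt2, -0.21 to 0.28 for Ilk, -0.10 to 0.14 for Parva, -0.14 to 0.12 for Tln1, -0.33 to 0.47 for Tln2 and -0.23 to 0.055 for Zyx. Mutant against control ran from -0.060 to 0.078 for Actn1, -0.17 to 0.052 for Actn4, -0.13 to 0.052 for Fermt2, -0.25 to 0.020 for Ilk, -0.17 to 0.034 for Tln1, -0.066 to 0.025 for Vcl and -0.088 to 0.058 for Zyx. For p75-sorted cells against OFT the ranges were -0.037 to 0.29 for Fermt2, -0.42 to 0.040 for Parva and -0.34 to 0.0029 for Vasp, and for OFT against LM and UM -0.060 to 0.34 for Tln2. An origin left with 1 array is assumed to vary like the others.

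Over the alternatives that test genes, all genes called ran from 631 to 2154 for OFT against LM and UM (2060 as reported), 3636 to 6545 for p75-sorted cells against LM and UM (6481), 1836 to 5008 against OFT (4665), 64 to 227 for LM against UM (210), and 3420 to 6660 among origins (6270). With each of 31057 probe sets tested on its own, the probe sets called were 3753, 14103, 9761, 237 and 13157 in the same order. Values near or under 19.4 in intensity carry little signal, which limits the second Vcl and Actn1 probe sets in p75-sorted cells.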
